A study of Mus musculus with 4 samples.

Results

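Fat stored in the droplets of brown adipocytes is broken down by a short chain of lipases, each held in check or helped by a partner protein. The mRNA levels of 10 genes of this chain were taken from RNA sequencing of brown fat, by their symbols among 55387 rows. All 10 were found, each on a single row, and all 10 passed the limit for testing, a mean above 1 in either genotype. They are the triglyceride lipase Pnpla2 and its relative Pnpla3, the activator Abhd5, the inhibitors G0s2 and Hilpda, the diglyceride lipase Lipe, the monoglyceride lipases Mgll and Abhd6, the glycerol channel Aqp7 and the lysosomal lipase Lipa. The tissue came from 4 male mice aged 15 weeks on a C57BL/6 background, kept at room temperature. There were 2 Sox4f/f mice, the controls, which the labels give as wild type and which carry floxed Sox4 alleles without Cre, and 2 littermates labelled Sox4-MKO, which carry the same floxed alleles and Myf5-Cre. Myf5-Cre is active in precursors of both brown adipocytes and skeletal muscle, so it does not restrict the deletion to fat, and in whole tissue the cells outside this lineage keep Sox4. The deposited values are in FPKM, which is fragments per kilobase of transcript and divided by how many fragments were mapped, so levels can be compared between genes.

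In brown adipocytes noradrenaline raises cAMP, and protein kinase A then phosphorylates the droplet coat and Lipe. Abhd5 is released from the coat and activates Pnpla2 (also called ATGL), which removes the first fatty acid from a triglyceride. Lipe (HSL) takes the next one and Mgll the last, leaving glycerol. The freed fatty acids feed the mitochondria and activate the uncoupling protein of brown fat.

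By limma, with a gene called where its unadjusted p was under 0.05, Pnpla2, Lipe, Abhd6, Aqp7 and Lipa were lower in the mice labelled Sox4-MKO, 5 of the 10, and Pnpla3 was higher. Mgll, Abhd5, G0s2 and Hilpda were not called. Among all 12877 genes tested, 8.28% were called lower and 7.95% higher by the same rule. The 10 genes were chosen with earlier results of these data known, so comparisons with all genes are a description. The 2 genotypes did not overlap for 7 of the 10 genes, against 51.3% of all genes tested. The median log2 fold change was -0.35 for the 10 genes and -0.05 for all genes tested. After Benjamini-Hochberg adjustment over all genes limma called 0 of 12877, against 2090 at an unadjusted p under 0.05, and the smallest adjusted p among the 10 genes was 0.196, that of Aqp7. The count of 5 lower genes depended on the scaling of the libraries. It was 2 when the libraries were rescaled without mitochondrially encoded genes and Ucp1, where 746 of all genes were called lower and 1322 higher against 1066 and 1024 as deposited. It was 0 when they were scaled to the adipocyte genes Adipoq, Plin1, Cidec and Fabp4, where 201 were called lower and 931 higher. With 1 mouse left out it was 1 or 2.

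Sox4, the gene targeted by the deletion, had 1.98 and 1.06 FPKM in the Sox4f/f mice and 0.98 and 3.06 FPKM in the mice labelled Sox4-MKO. Its mRNA was not lower under that label, with a log2 fold change of 0.20 (limma, SE 0.43, adjusted p = 0.843), and every direction given here follows the labels. These values lie near the limit of 1 FPKM for testing. By western blot the paper reports much less SOX4 protein in brown fat of younger Sox4-MKO mice. Brown adipocyte markers were present in all 4 libraries, with Ucp1 between 733 and 1935 FPKM, and 6 of the 9 on the list were called lower, with summed levels of 7289 to 7454 FPKM in controls and 3628 to 4370 FPKM in the mice labelled Sox4-MKO. Markers of some other cell types moved as well. Of 12 skeletal muscle markers 10 were called higher, with a summed level of 211 and 779 FPKM in controls against 15122 and 2637 FPKM in the mice labelled Sox4-MKO. All 9 fibroblast and progenitor markers were called higher, with sums of 417 to 455 against 841 to 920 FPKM, as were 10 of 14 macrophage markers, with sums of 233 to 343 against 471 to 484 FPKM. Of 9 endothelial, 5 erythrocyte and 2 tested lymphocyte markers 0 were called, with a median log2 fold change of -0.31 for the endothelial ones. The labels name adipocytes as the cell type. None of these markers was listed at 0 in all 4 libraries. The part of these cells in the results below was not tested, and in whole tissue a smaller share of adipocytes and less RNA per adipocyte cannot be told apart.

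**Figure D1:**
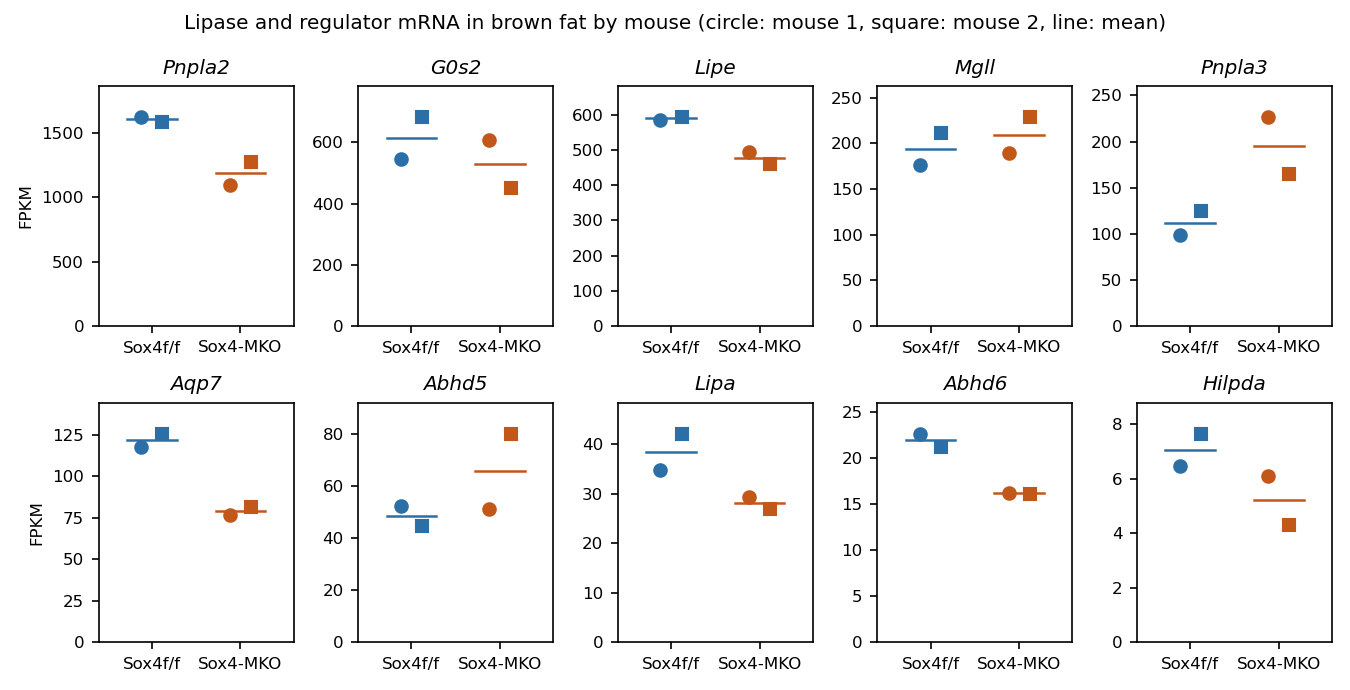
Each panel plots the FPKM of 1 gene (axis from 0) in the 2 Sox4f/f mice (blue) and the 2 mice labelled Sox4-MKO (orange), with circles for mouse 1, squares for mouse 2 and a line at the mean of 2. Orange points lie below both blue points for Pnpla2, Lipe, Aqp7, Lipa, Abhd6 and Hilpda and above both for Pnpla3, and the groups overlap for G0s2, Mgll and Abhd5.

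By level the genes fell into steps. Pnpla2 was the highest at 1100.2 to 1624 FPKM, above 99.8% of all tested genes. G0s2, between 449.96 and 682 FPKM, and Lipe, between 459 and 593 FPKM, overlapped, each being higher than the other in 2 of 4 libraries. Mgll, Pnpla3, Aqp7 and Abhd5 followed with ranges that overlapped from each to the next. Abhd5, although above Lipa in 4 of 4 libraries, exceeded it by as little as 1.06-fold in one of them. Lipa, Abhd6 and Hilpda came last, and Hilpda was lowest at 4.31 to 7.65 FPKM, from an estimated 67 to 90 fragments per library. Pnpla3 changed its place in this order. It had 0.84 times the FPKM of Aqp7 in Sox4f/f mouse 1 and 2.95 times in mouse 1 labelled Sox4-MKO.

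The reference sequence just before the start site is shown for 4 of the genes called, to set the gene that was higher beside 3 of the 5 that were lower. Sequences are 250 bases from RefSeq (GRCm38.p6), 5′ to 3′ on the gene's strand, and end at the base before the start. Aqp7 has a pair of annotated starts, and the upstream one is used. Capitals mark a match on either strand to AGGTCA, the half-site of nuclear receptors such as the PPARs, or to CCCNNGGG, the core of EBF sites.
Pnpla2 promoter, chr7:141454938-141455187, plus strand: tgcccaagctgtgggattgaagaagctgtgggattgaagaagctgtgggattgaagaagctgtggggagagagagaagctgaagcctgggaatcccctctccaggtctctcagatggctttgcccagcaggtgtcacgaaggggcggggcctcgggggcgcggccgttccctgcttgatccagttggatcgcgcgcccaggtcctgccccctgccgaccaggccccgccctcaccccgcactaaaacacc
Pnpla3 promoter, chr15:84167566-84167815, plus strand: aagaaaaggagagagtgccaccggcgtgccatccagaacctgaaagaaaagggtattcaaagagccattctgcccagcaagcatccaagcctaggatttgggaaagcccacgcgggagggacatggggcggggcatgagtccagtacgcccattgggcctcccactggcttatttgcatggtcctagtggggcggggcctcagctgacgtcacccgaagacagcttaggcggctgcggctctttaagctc
Aqp7 promoter, chr4:41048137-41048386, minus strand: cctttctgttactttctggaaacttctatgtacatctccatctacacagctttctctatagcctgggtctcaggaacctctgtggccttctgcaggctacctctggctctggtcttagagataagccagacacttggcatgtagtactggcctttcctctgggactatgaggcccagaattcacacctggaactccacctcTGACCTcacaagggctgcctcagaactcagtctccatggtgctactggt
Lipa promoter, chr19:34527475-34527724, minus strand: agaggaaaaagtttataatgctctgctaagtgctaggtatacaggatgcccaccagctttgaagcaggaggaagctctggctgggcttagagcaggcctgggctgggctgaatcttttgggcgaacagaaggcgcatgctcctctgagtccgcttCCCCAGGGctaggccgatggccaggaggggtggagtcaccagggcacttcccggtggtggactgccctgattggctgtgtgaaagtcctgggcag
The Aqp7 stretch held the half-site 49 bases before the start, on the opposite strand, and the Lipa stretch an EBF type match 95 bases before it. No motif searched was in the stretches of Pnpla2 or Pnpla3. Lipe and Abhd6, also called lower, are not shown and held neither AGGTCA nor CCCNNGGG. Matches were also found for Abhd5, Hilpda and Mgll, which were not called. Over the 15 start sites listed for the 10 genes, several of which share bases, AGGTCA was in 3 (of Aqp7 and Abhd5), against 14% of all 32851 promoters in the table. The Aqp7 half-site shown lies in both Aqp7 windows, and the downstream window holds another. CCCNNGGG was in 4 (of Aqp7, Hilpda, Lipa and Mgll), against 11.8%. The Aqp7 match to it lies in the downstream window, which is not shown. The hypoxia type motif ACGTG was in 4 (of Hilpda, Lipe and Mgll), against 16.6%, and in Hilpda directly precedes the EBF type match. The SOX type motif AACAAAG was in 0 of 15, against 5.03%. A match is a description of letters and not a bound site, and a window without one says nothing of the factor.

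Pnpla2, the lipase that starts the chain, had 1624 and 1589 FPKM in the Sox4f/f mice and 1100.2 and 1278 FPKM in the mice labelled Sox4-MKO. Both of the latter lay below both controls, at 74.0% of the control mean. The mean was 1607 ± 24.2 FPKM in controls and 1189 ± 126 FPKM in the other genotype (SD, n = 2 each). In log2(FPKM + 1) the difference was -0.44 (limma, SE 0.14, unadjusted p = 0.0265 and adjusted p = 0.254). It was called under 7 of 16 alternatives. The value was -0.18 after quantile normalization, and the call was lost without Sox4f/f mouse 1 (-0.42), Sox4f/f mouse 2 (-0.45) or mouse 1 labelled Sox4-MKO (-0.33).

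Abhd5, the activator of Pnpla2, had 52.2 and 44.8 FPKM in controls and 51.2 and 79.9 FPKM in the mice labelled Sox4-MKO. Only mouse 2 of the latter lay above both controls, and the groups overlapped. The log2 fold change of 0.40 (limma, SE 0.25, adjusted p = 0.472) was not called, with a 95% interval from -0.25 to 1.04. Without mouse 1 labelled Sox4-MKO it was 0.71 and its unadjusted p was 0.0161, and without mouse 2 it was 0.08.

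G0s2 binds Pnpla2 and blocks it. It had 547 and 682 FPKM in controls and 608 and 449.96 FPKM in the mice labelled Sox4-MKO, so that the groups overlapped. Its log2 fold change was -0.22 (limma, SE 0.21, adjusted p = 0.613), with a 95% interval from -0.77 to 0.32. Without mouse 2 labelled Sox4-MKO it was -0.0072. Hilpda, a small droplet protein induced by hypoxia and fatty acids, inhibits the same enzyme. It had 6.47 and 7.65 FPKM in controls and 6.12 and 4.31 FPKM in the mice labelled Sox4-MKO, without overlap, a pattern in that direction seen in 29.6% of all tested genes. The log2 fold change of -0.39 (limma, SE 0.21, adjusted p = 0.432) was not called, with a 95% interval from -0.95 to 0.18. Neither inhibitor was called under any alternative tried.

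Pnpla3, the closest relative of Pnpla2 on this list, sits on droplets, binds Abhd5 and is induced by feeding in liver and fat. It had 99.2 and 125 FPKM in controls and 226 and 165 FPKM in the mice labelled Sox4-MKO. Both of the latter lay above both controls, a pattern in that direction seen in 21.7% of all tested genes. The mean was 112 ± 18.1 FPKM in controls and 196 ± 43.5 FPKM in the other genotype (SD, n = 2 each), or 175% of control. On the log2 scale the difference was 0.79 (limma, SE 0.21, unadjusted p = 0.0158 and adjusted p = 0.231). It was called under all 4 other scalings. It lost the call without moderation of the variance (unadjusted p = 0.106), without Sox4f/f mouse 1 (0.63, unadjusted p = 0.105) and without mouse 1 labelled Sox4-MKO (0.56, unadjusted p = 0.0548).

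Lipe, the hormone-sensitive lipase, had 586 and 593 FPKM in controls and 494 and 459 FPKM in the mice labelled Sox4-MKO. Both of the latter lay below both controls, at 80.8% of the control mean. In log2(FPKM + 1) the difference was -0.31 (limma, SE 0.11, unadjusted p = 0.0455 and adjusted p = 0.298). Its unadjusted p stood just under the threshold. It passed under 6 of 16 alternatives, and was 0.252 after quantile normalization, where the difference was -0.15. The call was lost without either Sox4f/f mouse (-0.32 and -0.30) and without mouse 2 labelled Sox4-MKO (-0.26).

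Mgll, the monoglyceride lipase that ends the chain and also breaks down the endocannabinoid 2-arachidonoylglycerol, had 176 and 211 FPKM in controls and 189 and 228 FPKM in the mice labelled Sox4-MKO. The groups interleaved, and the log2 fold change of 0.11 (limma, SE 0.16, adjusted p = 0.761) had a 95% interval from -0.32 to 0.54. Its sign turned when Sox4f/f mouse 1 (-0.023) or mouse 2 labelled Sox4-MKO (-0.027) was left out. By qPCR the paper reports significantly lower mRNA of Mgll, and of Lipe and Pnpla2 as Hsl and Atgl, in brown fat of Sox4-MKO mice. Those mice were younger and the assay was another, so the values are not directly comparable. Abhd6, another monoglyceride lipase, held in membranes, had 22.6 and 21.2 FPKM in controls and 16.2 and 16.1 FPKM in the mice labelled Sox4-MKO. The pairs did not overlap, and the log2 fold change was -0.41 (limma, SE 0.12, unadjusted p = 0.0229 and adjusted p = 0.246). It passed under 11 of 16 alternatives, but under none of those with 1 mouse left out, where it stayed between -0.46 and -0.37.

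Aqp7, the channel through which glycerol leaves the adipocyte, differed most among the genes that were lower. It had 118 and 126 FPKM in controls and 76.7 and 81.4 FPKM in the mice labelled Sox4-MKO. The pairs lay far apart, with means of 122 ± 5.46 and 79.1 ± 3.36 FPKM (SD, n = 2 each), or 64.9% of control. The log2 fold change of -0.62 (limma, SE 0.11, unadjusted p = 0.00352 and adjusted p = 0.196) passed under 15 of 16 alternatives, each leave-one-out fit included. It did not pass after scaling to the adipocyte genes, where it was -0.54 (unadjusted p = 0.113).

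Lipa, the acid lipase of lysosomes, acts apart from the chain and takes its fat from droplets and lipoproteins brought to that organelle. It had 34.8 and 42.1 FPKM in controls and 29.4 and 26.9 FPKM in the mice labelled Sox4-MKO. Both of the latter lay below both controls, at 73.2% of the control mean. Its log2 fold change was -0.43 (limma, SE 0.15, unadjusted p = 0.0369 and adjusted p = 0.275). It passed under 8 of 16 alternatives, and did not pass without Sox4f/f mouse 2 (-0.30) or without mouse 1 (-0.49) or mouse 2 (-0.37) labelled Sox4-MKO. Macrophages also express Lipa, and the part of the macrophage RNA described above in this value was not tested.

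**Figure D2:**
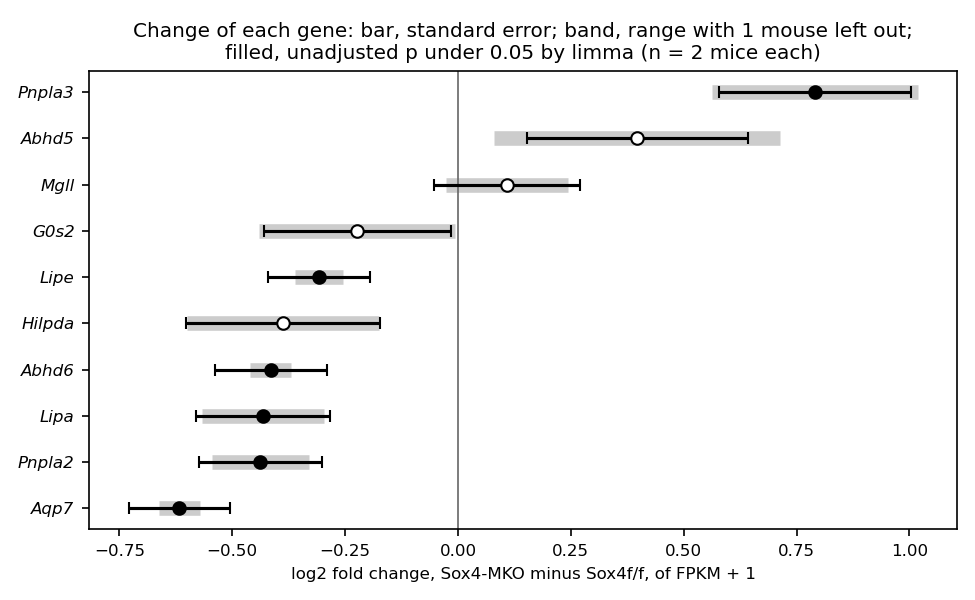
Log2 fold change of FPKM + 1 (mice labelled Sox4-MKO minus Sox4f/f) for each gene, with the standard error as bars, the range with 1 mouse left out as a grey band, and filled points for an unadjusted p under 0.05. Aqp7 is farthest to the left at -0.62, Pnpla3 farthest to the right at 0.79, and the grey band crosses 0 for Mgll.

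Each gene was also divided by Pnpla2 in the same library, as deposited. Such a ratio does not change when all values of a library are multiplied by 1 factor, but quantile normalization, which is no such factor, does change it. With 2 mice against 2, the exact two-sided permutation test of such a ratio cannot give a p below 0.33, so no ratio could be called. Pnpla3 moved most, from 0.061 and 0.079 times the FPKM of Pnpla2 in Sox4f/f to 0.206 and 0.129 times in the mice labelled Sox4-MKO. That is a 2.35-fold higher ratio without overlap (exact permutation p = 0.33), and 0.90 to 1.57 on the log2 scale with 1 mouse left out. The ratio of Abhd5 to Pnpla2 was 0.032 and 0.028 in Sox4f/f and 0.046 and 0.063 in the mice labelled Sox4-MKO, 1.79-fold higher and also without overlap. That of Mgll was 0.108 and 0.133 against 0.172 and 0.179, or 1.46-fold higher, again without overlap. Ratios that were higher without overlap were thus 3 of 9, against 55.9% of all other tested genes divided by Pnpla2, so that they set these genes apart from no others. The lower Pnpla2 enters every ratio, and the log2 difference of 0.55 for Mgll compares with 0.11 for its own FPKM.

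For the inhibitors the ratios overlapped. G0s2 stood at 0.337 and 0.429 times Pnpla2 in Sox4f/f and at 0.552 and 0.352 times in the mice labelled Sox4-MKO, with the exact permutation p at 0.667. The ratios of Hilpda, Lipe, Abhd6 and Lipa to Pnpla2 overlapped too, with log2 differences from -0.017 to 0.13. The ratio of Aqp7 was lower without overlap, at 0.073 and 0.079 against 0.070 and 0.064 times, a pattern in that direction seen in 3.66% of all other tested genes (exact permutation p = 0.33).

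**Figure D3:**
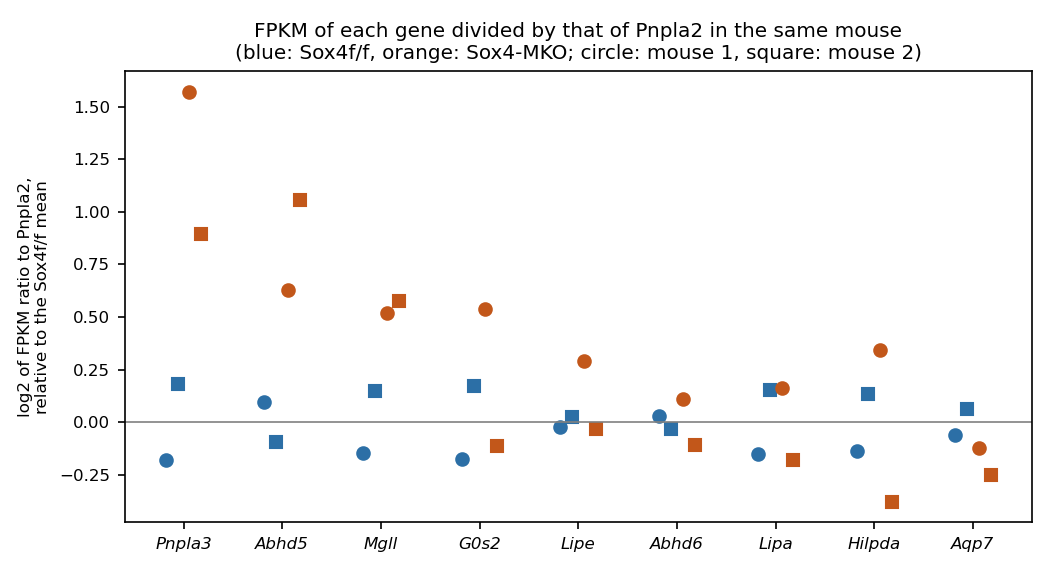
Log2 of the FPKM ratio of each gene to Pnpla2 in the same mouse, set to 0 at the Sox4f/f mean, for 2 Sox4f/f mice (blue) and 2 mice labelled Sox4-MKO (orange), with circles for mouse 1 and squares for mouse 2. For Pnpla3, Abhd5 and Mgll both orange points lie above both blue points, for Aqp7 below, and for the other 5 genes they overlap.

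Against the geometric mean of the adipocyte genes Adipoq, Plin1, Cidec and Fabp4 in the same library, Pnpla2 was at 1.259 and 1.202 in Sox4f/f and at 1.03 and 0.891 in the mice labelled Sox4-MKO. Pnpla2, Abhd6 and Aqp7 stayed below the controls without overlap on this scale, and Pnpla3 and Abhd5 above them (exact permutation p = 0.33 each, the smallest possible). These were 3 of 10 below and 2 of 10 above, against 14.2% and 19.3% of all other tested genes on the same scale. Lipe, Lipa and Hilpda overlapped. The adipocyte mean itself was 1290 and 1322 FPKM in controls and 1066 and 1434 FPKM in mice 1 and 2 labelled Sox4-MKO, so that the latter moved apart on this scale.

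**Figure D4:**
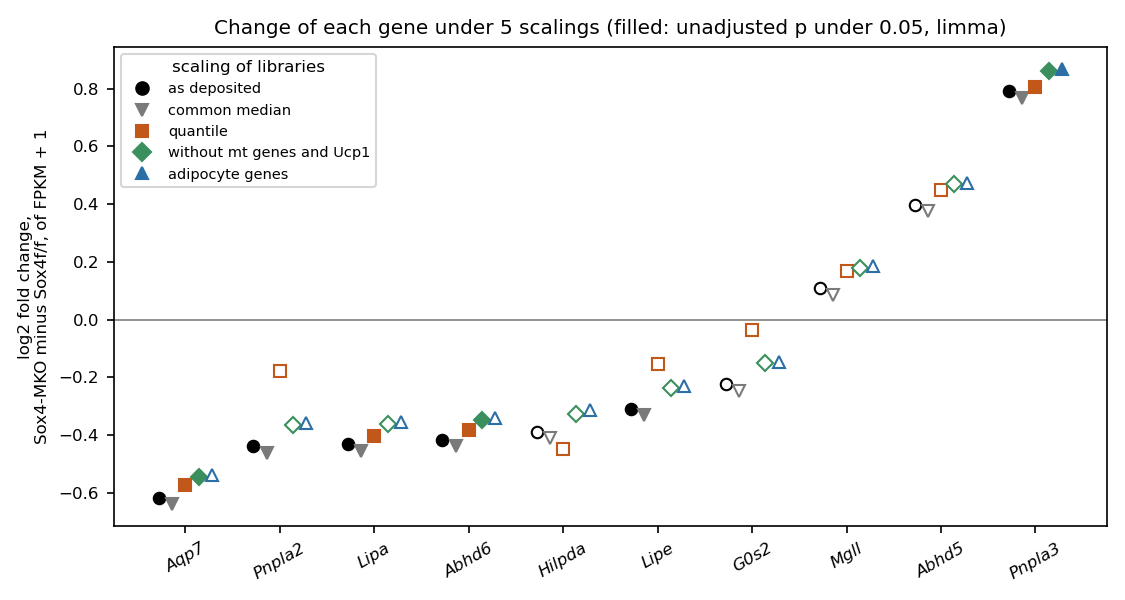
Log2 fold change of FPKM + 1 of each gene (mice labelled Sox4-MKO minus Sox4f/f) as deposited and under 4 other scalings of the libraries, with filled symbols for an unadjusted p under 0.05 by limma. No gene changes sign, Pnpla3 is filled under all 5, and quantile normalization moves Pnpla2 from -0.44 to -0.18.

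The other genes of the pathway were taken from lists chosen for what the genes are known to do. Earlier results of these data were known when the lists were chosen. Counts called are set beside the 8.28% and 7.95% of all tested genes called lower and higher, as a description. Of 3 tested relatives of Pnpla2 0 were called in either direction by limma, and of 15 genes of the Abhd family outside the 10, 1 was lower and 0 higher, a share near that of all genes. The gene called, Abhd17c, which removes palmitate from proteins, had 17.3 and 18.1 FPKM in controls against 11.8 and 13.3 FPKM (log2 fold change -0.47). Of 8 other intracellular esterases and lipases 2 were lower, and 0 higher, led by the phospholipase Ddhd1 with 33.8 and 23.3 against 15.2 and 16.2 FPKM (log2 fold change -0.80).

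Among lipases that act in the capillaries and their regulators, 4 of 12 tested genes were lower and 1 was higher. The lipoprotein lipase Lpl overlapped, at 1223 and 848 FPKM in controls against 1213 and 1137 FPKM. Apoe, a ligand for lipoprotein uptake, had 2177 and 2155 against 1345 and 1414 FPKM (log2 fold change -0.65). Apoc3, an inhibitor of lipoprotein lipase made mainly by liver, was low throughout, at 2.11 and 2.46 against 8.45 and 7.67 FPKM (log2 fold change 1.47).

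The coat of the droplet is where the lipases are held or let in. Of 11 genes of droplet coat and droplet size, 3 were lower and 2 higher, with a median log2 fold change of -0.20. Cidea, which enlarges droplets in brown fat, had 1742 and 1849 FPKM in controls against 989 and 984 FPKM (log2 fold change -0.86). Fitm1, known from skeletal muscle, had 0.27 and 3.97 against 46.8 and 16.2 FPKM (log2 fold change 3.51), highest in the library with the most muscle RNA. Plin1, the coat protein that holds Abhd5 at rest, had 726 and 851 against 708 and 710 FPKM and was not called (log2 fold change -0.15). Both mice labelled Sox4-MKO lay below both controls, a pattern in that direction seen in 29.6% of all tested genes. By western blot the paper reports more PLIN1 protein in brown fat of younger Sox4-MKO mice. Plin5, another coat protein and one of the 3 lower genes, had 102 and 84.4 against 58.0 and 56.1 FPKM (log2 fold change -0.69).

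The hormonal control of lipolysis had 6 of 35 tested genes lower and 7 higher, with a median of -0.15. Adcy3, an adenylyl cyclase that makes cAMP, had 55.7 and 37.0 FPKM in controls against 16.2 and 19.6 FPKM (log2 fold change -1.30). Ptger3, a receptor that lowers cAMP, had 24.7 and 31.6 against 66.8 and 70.5 FPKM (log2 fold change 1.26). The main receptor for noradrenaline in fat, Adrb3, overlapped, at 132 and 174 against 119 and 199.6 FPKM.

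Of 15 transcription factors known to act on lipase genes, 3 were lower and 1 higher. Ppara, which drives genes of fatty acid use, had 115 and 130 FPKM in controls against 57.7 and 66.4 FPKM (log2 fold change -0.97). Srebf1, which drives fat synthesis and Pnpla3 in liver, had 88.7 and 111 against 145 and 131 FPKM (log2 fold change 0.47). Of 14 other lysosomal genes 1 was lower and 2 were higher, with a median of 0.17. Psap, which helps lysosomes digest sphingolipids, had 710 and 767 against 533 and 605 FPKM (log2 fold change -0.38), and Gnptab, which tags enzymes for lysosomes, had 8.88 and 7.76 against 16.6 and 14.6 FPKM (log2 fold change 0.83). Of 6 other genes of water and glycerol transport and glycerol use, 2 were lower and 1 higher. The water channel Aqp1 had 243 and 250 against 161 and 131 FPKM (log2 fold change -0.76). Aqp4, a water channel of fast muscle fibres, had 0.086 and 0.20 against 8.77 and 1.33 FPKM (log2 fold change 2.06).

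**Figure D5:**
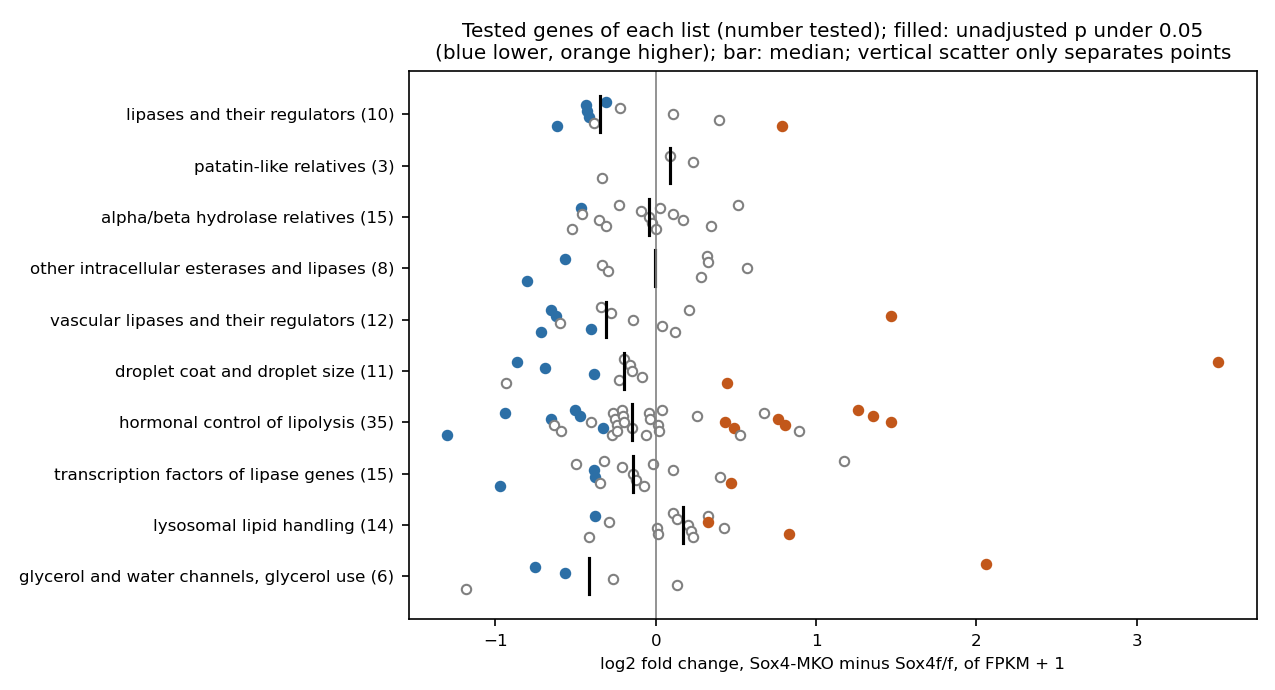
Log2 fold change of FPKM + 1 (mice labelled Sox4-MKO minus Sox4f/f) of every tested gene of the 10 lipase genes and 9 wider lists, filled where the unadjusted p was under 0.05 by limma, with a bar at each list's median. The bar lies at -0.35 for the 10 genes, at -0.20 for genes of droplet coat and size and at 0.17 for lysosomal genes.

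On GRCm38 (GENCODE M21, matched by symbol), Pnpla2 lies on chromosome 7 from 141455198 to 141460743, Lipe on chromosome 7 from 25379527 to 25398710, Pnpla3 on chromosome 15 from 84167837 to 84187236, Aqp7 on chromosome 4 from 41033074 to 41048139 and Lipa on chromosome 19 from 34492318 to 34527474. Exons of 4 of the 10 genes overlap those of another gene. Lipe, Mgll and Abhd5 each overlap an antisense gene, and Pnpla3 overlaps Gm49513 on its own strand. The sources differ on whether the library kept strand, so reads of such pairs may not be told apart. The overlapping genes had at most 1.39 FPKM in any library, but these values rest on the same assignment of reads and cannot settle it.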

How the data were processed

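RNA of 4 brown fat samples was sequenced, 1 library per mouse. The authors deposited 1 FPKM value per gene and library, named Cufflinks 2.1.1 and Cuffdiff and build mm10 in their processing notes, and deposited no counts. The aligner and annotation are not given in the sources used here. The labels describe a stranded kit, the methods TruSeq v2. Depth, from the lowest values of genes with 1 transcript, was about 12000000 to 15900000 fragments. Some starting values of that search ended at other clusters. The sum of FPKM was 472062 to 578011.

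limma 3.58.1 (R 4.3.3) was fitted to log2(FPKM + 1) of 12877 rows with a mean FPKM above 1 in either genotype, with genotype as the only term and a trended prior, two-sided. This scale understates changes of low genes. "Called" means an unadjusted p under 0.05, the threshold in the methods, which name no test. Benjamini-Hochberg adjustment ran over all rows, and the code was tested on simulated data. Ratios used the exact permutation test. Figures used matplotlib 3.10.9.

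Members and lists were chosen with earlier results of these data known. Named genes are Sox4, the 10 members, the gene of smallest p per list and direction, and the nearest patterns of 4 members. Lpl, Plin1, Plin5, Adrb3 and Ucp1 were named after their values were seen. Protein sequences were not analysed here. Alternatives were 4 scalings, 3 FPKM limits, 2 pseudocounts, 2 fits of the variance, mouse number as a block and leaving out each library.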

Additional observations from a re-analysis of the deposited data

How the results depend on the processing

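With 2 mice each, no call survives adjustment for all genes, and the depth limits Hilpda most. The limma p-values rest on these mice alone. The spread they use is partly each gene's own and partly that of genes of similar level. The number of members called lower, 5 as deposited, was 3 after quantile normalization, 3 with no FPKM limit, 3 without moderation, 3 without a trend, 2 after rescaling without mitochondrially encoded genes and Ucp1, 2 with the replicate block and 0 after scaling to adipocyte genes, and 1 to 2 with 1 library left out. The number called higher, 1 as deposited, was 0 without moderation and 0 to 1 with 1 library left out. The median of the members, -0.35, was -0.17 after quantile normalization, -0.27 after scaling to adipocyte genes and -0.39 to -0.22 with 1 library left out. Over all genes, those called lower were 201 after scaling to adipocyte genes and 380 to 1015 with 1 library left out, against 1066, and those called higher were 553 without moderation and 433 to 1443 with 1 library left out, against 1024. Of 16 alternatives, Pnpla2 and Lipe were below 0 in 16 and called in 7 and 6. The log2 fold change of Mgll turned to -0.023 without Sox4f/f mouse 1 and -0.027 without mouse 2 labelled Sox4-MKO, and that of Sox4 to -0.071 without Sox4f/f mouse 2 and -0.32 without mouse 2 labelled Sox4-MKO. With 1 library left out they ranged up to 0.24 for Mgll and 0.71 for Sox4. The causes were not tested. Deviations of same-numbered mice had a correlation of -0.012 across 12877 genes and the labels tie the numbers to no litter or day, so they were not treated as pairs.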

Other observations

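Genes with the most similar pattern over the 4 libraries were found by the Euclidean distance of log2(FPKM + 1) values centred on each gene's mean, among tested genes with a mean of at least 10 FPKM. With 4 libraries many genes lie close, and the distances are a description. For Pnpla2 they were Ctnnd1 (distance 0.013), with 29.7 and 29.0 FPKM in Sox4f/f and 19.6 and 23.1 FPKM in the mice labelled Sox4-MKO, and Ddrgk1 (0.046). For Lipe they were Ppp1r18 (0.025) and Hadha (0.026), a subunit of the mitochondrial trifunctional protein of fatty acid oxidation, with 439 and 446 against 378 and 350.2 FPKM. For Mgll they were Capn2 (0.025) and the glucocorticoid receptor Nr3c1 (0.043), with 29.2 and 34.8 against 30.2 and 38.0 FPKM. For G0s2 they were Cd200 (0.020) and Rasl12 (0.055). Among the 10 genes themselves, Lipe and Abhd6 were closest (0.149), followed by Pnpla2 and Abhd6 (0.164) and by the inhibitors G0s2 and Hilpda (0.180).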
